A study of Zea mays with 12 samples.

Results

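Maize (Zea mays) plants of a line labelled resistant to disease were compared with plants of a line labelled susceptible, both treated with BV-3, a Bacillus velezensis strain studied for biocontrol of maize pathogens. The comparison rests on 6 of the 12 libraries of the series, 3 labelled BV-3 resistant and 3 labelled BV-3 susceptible, and covers all genes of the deposited table. The members were the libraries with these labels, and no measured value was used to choose them. The 6 other libraries, 3 labelled CK resistant and 3 labelled CK susceptible, came from plants labelled CK, the control without BV-3, and are used here only to show the level of the same genes outside the comparison. The tissue of all groups is given as the whole plant body, poly(A) RNA was sequenced with its strand kept, and the libraries of a group are labelled as separate biological samples. The titles of the CK libraries carry the code 801 in the resistant and 986 in the susceptible group, those of the BV-3 libraries the words kang and gan, and the labels do not say whether these name the lines. The sources used here do not state the age of the plants, the time after treatment or any pathogen present. Every value below was measured in whole plants, so fewer cells of a type and less RNA per cell cannot be told apart.

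The BV-3 resistant libraries held 36.8, 37.4 and 35.1 M (mega) counts and the BV-3 susceptible libraries 37.8, 36.5 and 32.3 M. A library of each BV-3 group stood somewhat apart. Between replicates, log CPM values of the second resistant library had Pearson correlations across genes of 0.921 and 0.945 with the other 2, which had 0.95 with each other. Those of the third susceptible library had 0.931 and 0.916, against 0.955 between its other 2. The second CK resistant library stood further apart, with 0.769 and 0.775, against 0.951 between the other 2 of its group. Of the control libraries, numbers 2 and 3 of the CK susceptible group carried the genes found only in resistant plants under BV-3 and went against their label, as detailed at the end, so that only the first library labelled CK susceptible could be set against the line that its label names.

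Plants recognise microbes at the cell surface with receptor kinases and inside the cell with NLR proteins, whose genes often differ between lines of a crop. Recognition and wounding lead to synthesis of the hormone jasmonate from membrane lipids. In its absence TIFY (JAZ) proteins hold back the transcription factors that act on jasmonate target genes, and the hormone receptor COI1 marks these repressors for degradation. TIFY genes are themselves among the genes induced by jasmonate. Defence in grasses also draws on terpenoids, benzoxazinoids and lignin.

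Counts were compared with edgeR's quasi-likelihood test fitted on the 6 libraries, and a gene was called where its adjusted p (Benjamini-Hochberg) was under 0.05. Of 31752 genes tested, 5349 (16.8%) were called, 2179 higher (6.86%) and 3170 lower (9.98%) in resistant than in susceptible plants. The tested genes fell into 3 kinds. A first kind, 22085 genes, had a mean of at least 1 FPKM (fragments scaled to gene length and library depth by the authors) in each line and are called genes expressed in both lines. Of these, 2110 (9.55%) were called, 521 higher (2.36%) and 1589 lower (7.19%) in resistant plants, so lower calls outnumbered higher ones. A second kind had 0 counts in all 3 libraries of one line and at least 1 CPM (count per M counts) in every library of the other line. Of these genes, 476 were found in resistant plants and 364 in susceptible plants. All of them were called and count among the 5349, but the rule that chose them made such calls likely. A last kind, 8827 tested genes that were low in a line without meeting either rule, held 1182 higher and 1217 lower calls. The plot of mean levels in the 2 lines shows these kinds side by side.

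**Figure D1:**
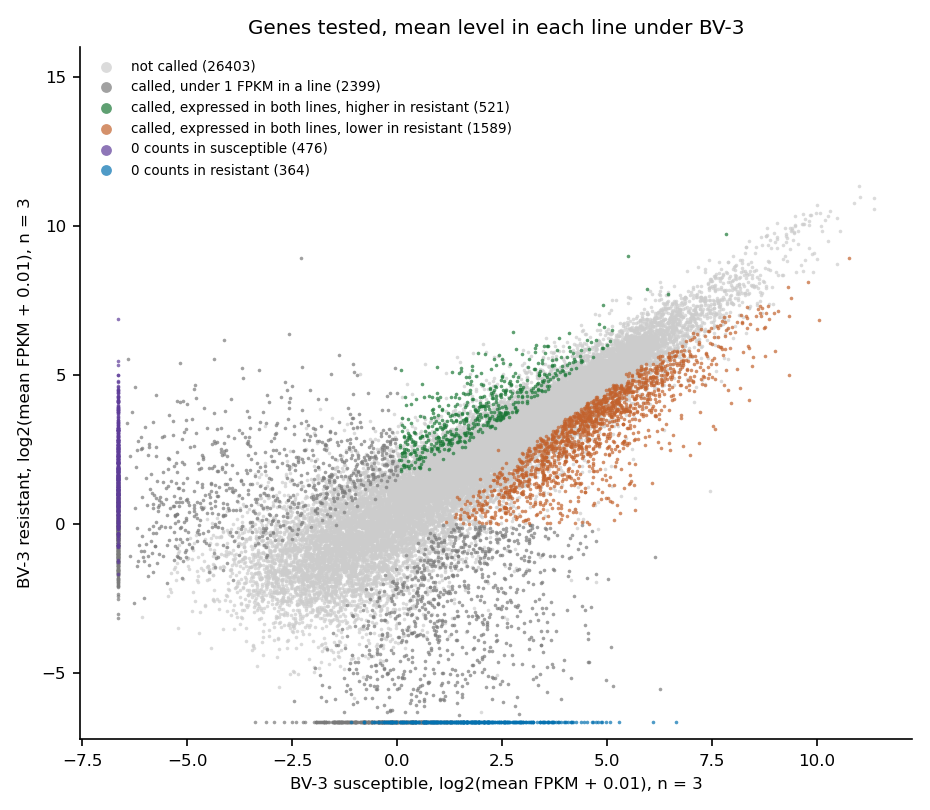
Mean level of each of the 31752 tested genes in BV-3 resistant plants (vertical axis) and BV-3 susceptible plants (horizontal axis), as log2(mean FPKM + 0.01) over 3 libraries each. Coloured points are the 521 higher and 1589 lower calls among genes expressed in both lines, and the columns of points at the left and the bottom edge are genes with 0 counts in a line.

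The excess of lower calls was smaller with other scaling or another test. With upper-quartile scaling the median log2 fold change of all genes tested moved to 0.12, from -0.0049 with TMM scaling, and limma on log2(FPKM + 1) and on log2(FPKM + 0.1) gave 0.16 and 0.21. The share of higher genes among the calls in genes expressed in both lines was 24.7% with TMM, 35.0% with upper-quartile scaling, 33.9% with DESeq2, and 45.3 and 45.4% with limma. Lower calls outnumbered higher ones in each of these settings, whereas over all genes tested the share of higher calls was 40.7% with TMM and 52.0% with both limma fits. When the 12 libraries of the series entered 1 edgeR fit, 0 genes were called, and 7522 had an unadjusted p under 0.05. That fit included the CK libraries that went against their label. Its common biological coefficient of variation, the spread between replicates, was 0.682, against 0.477 with the 6 libraries. The median log2 fold change of genes expressed in both lines was -0.048, against -0.045 with the 6 libraries. The cause of the missing calls was not tested. Fold changes below are log2 values of resistant over susceptible plants ± SE, from edgeR with TMM scaling, FPKM values are given per library or as mean ± SD (n = 3 per line), and adjusted p-values are those of the same edgeR fit.

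Among genes expressed in both lines, the 12 largest falls in resistant plants included kinases, amino acid transporters and an enzyme of volatile terpenoids. A probable serine/threonine-protein kinase (NewGene_12446), a model beyond the reference annotation, had 1.23, 1.05 and 0.966 FPKM in BV-3 resistant libraries against 29.9, 33.1 and 45.1 FPKM in BV-3 susceptible libraries (log2 fold change -6.04 ± 0.30, adjusted p = 0.00059). The groups were far apart, and the same contrast was present between the CK resistant libraries, at 0.994, 0.199 and 0.225 FPKM, and the first CK susceptible library, at 30.4 FPKM. A receptor-like kinase (Zm00001eb257180) had 1.32, 1.36 and 1.18 FPKM in resistant libraries against 48.7, 49.5 and 21.8 FPKM in susceptible ones (-5.16 ± 0.41, adjusted p = 0.0018). Cysteine-rich receptor-like protein kinase 25 (Zm00001eb369970), of a family of surface receptors with many members in plant immunity, had 1.53, 0.919 and 0.57 against 13.8, 21.3 and 36 FPKM (-4.73 ± 0.56). A probable L-threonine aldolase (Zm00001eb017590), an enzyme that splits threonine into glycine and acetaldehyde, averaged 2.6 ± 0.19 FPKM in resistant plants and 66.9 ± 9.5 in susceptible plants (-4.93 ± 0.25, adjusted p = 0.00062), with 70.4 FPKM in the first CK susceptible library and 3.51 to 4.11 in the CK resistant ones. It thus differed in the same direction in the CK libraries, where the susceptible side is a single library.

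The acyclic sesquiterpene synthase (Zm00001eb071090), an enzyme that makes volatile sesquiterpene alcohols, was among the most abundant genes that fell. It had 65.6, 24.3 and 7.05 FPKM in BV-3 resistant libraries against 440, 794 and 707 FPKM in BV-3 susceptible libraries (-4.48 ± 0.91, adjusted p = 0.017). The resistant libraries spanned a wide range but all lay below the susceptible ones, and the call was lost without the second resistant library (adjusted p = 0.062). (+)-Neomenthol dehydrogenase (Zm00001eb075660), named for an enzyme of monoterpenoid metabolism, had 9.61, 10.8 and 7.25 FPKM against 105, 260 and 205 FPKM (-4.57 ± 0.43, adjusted p = 0.0022). Amino acid permease 6 (Zm00001eb384620), a membrane carrier of amino acids, had 8.56, 16.3 and 4.76 FPKM against 146, 226 and 179 FPKM (-4.48 ± 0.48). Lysine histidine transporter 1 (Zm00001eb412940), another amino acid carrier, had 2.33, 2.14 and 1.02 FPKM against 5.67, 22.5 and 66.2 FPKM (-4.44 ± 0.89), which was uneven over the susceptible libraries, and its call was lost without the second or the third resistant library (highest adjusted p = 0.074). Polyol transporter 5 (Zm00001eb166230) averaged 1.55 ± 1.4 against 37.9 ± 3.5 FPKM (-4.78 ± 0.84), and an RNA-binding protein with an RRM motif (Zm00001eb417060) 1.05 ± 0.46 against 21.2 ± 3 FPKM (-4.58 ± 0.54). Cis-prenyltransferase 4 (Zm00001eb320160), of a family that builds polyprenyl chains, was the least secure of the 12 largest falls. It had 5.88, 7.42 and 1.58 FPKM against 21.7, 22.7 and 332 FPKM (-4.88 ± 1.31, adjusted p = 0.046), so its mean rested on the third susceptible library, and its call was lost without any one of the resistant libraries (highest adjusted p = 0.15) and with upper-quartile scaling.

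The 12 largest rises in resistant plants included an actin, cell wall enzymes and a ribosomal protein. Actin-1 (Zm00001eb060540), a subunit of actin filaments, had 36.4, 39.8 and 32.1 FPKM in BV-3 resistant libraries against 0.413, 1.66 and 1.08 FPKM in BV-3 susceptible libraries (4.84 ± 0.52, adjusted p = 0.0027). An inositol-3-phosphate synthase (Zm00001eb401220), the enzyme of the committed step of myo-inositol synthesis, was the most abundant, with 596, 267 and 682 FPKM against 38.1, 65.4 and 31.8 FPKM (3.38 ± 0.57, adjusted p = 0.0087). Its groups did not overlap, and under CK the resistant libraries had 262, 103 and 300 FPKM against 40.4 FPKM in the first CK susceptible library. A probable cinnamyl alcohol dehydrogenase 8D (Zm00001eb312070), of the family that makes lignin alcohols, had 5.53, 40.8 and 11.4 FPKM against 1.14, 1.28 and 0.991 FPKM (3.75 ± 0.68). Laccase-12 (Zm00001eb148270), of the oxidases that polymerise lignin, had 66.8, 12.4 and 23.2 FPKM against 2.77, 3.38 and 1.19 FPKM (3.66 ± 0.79, adjusted p = 0.02), and its call was lost without the first or the third susceptible library (highest adjusted p = 0.07).

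A vegetative cell wall protein gp1 precursor (Zm00001eb059480) averaged 16 ± 4 FPKM in resistant and 1.15 ± 0.48 FPKM in susceptible plants, and BURP domain-containing protein 11 (Zm00001eb039010) 34 ± 8 against 2.77 ± 1.3 FPKM. For the gp1 gene the CK resistant libraries did not share a level, with 0.1, 0.163 and 9.05 FPKM. The rises also held 40S ribosomal protein S26 (Zm00001eb435560; 51.7 ± 22 against 4.23 ± 1.6 FPKM), ADP-ribosylation factor-like protein 2 (Zm00001eb201590; 19.5 ± 7.5 against 1.56 ± 0.71 FPKM), a lecithin-cholesterol acyltransferase-like gene (Zm00001eb120460; 16.3 ± 7.3 against 1.25 ± 0.77 FPKM), a VHS/GAT domain protein (NewGene_19936; 53.5 ± 16 against 3.77 ± 0.53 FPKM) and a gene with the dimerisation domain of hAT transposases (NewGene_6109; 18.3 ± 4.6 against 1.36 ± 1 FPKM). Histone H3.2 (Zm00001eb422190) had 8.77, 76.6 and 26.9 FPKM against 2.08, 4.34 and 2.17 FPKM, highest in the second resistant library, and was not called without the third resistant, the first susceptible or the third susceptible library (highest adjusted p = 0.083). The call of the acyltransferase-like gene was lost without the third resistant library (adjusted p = 0.051).

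**Figure D2:**
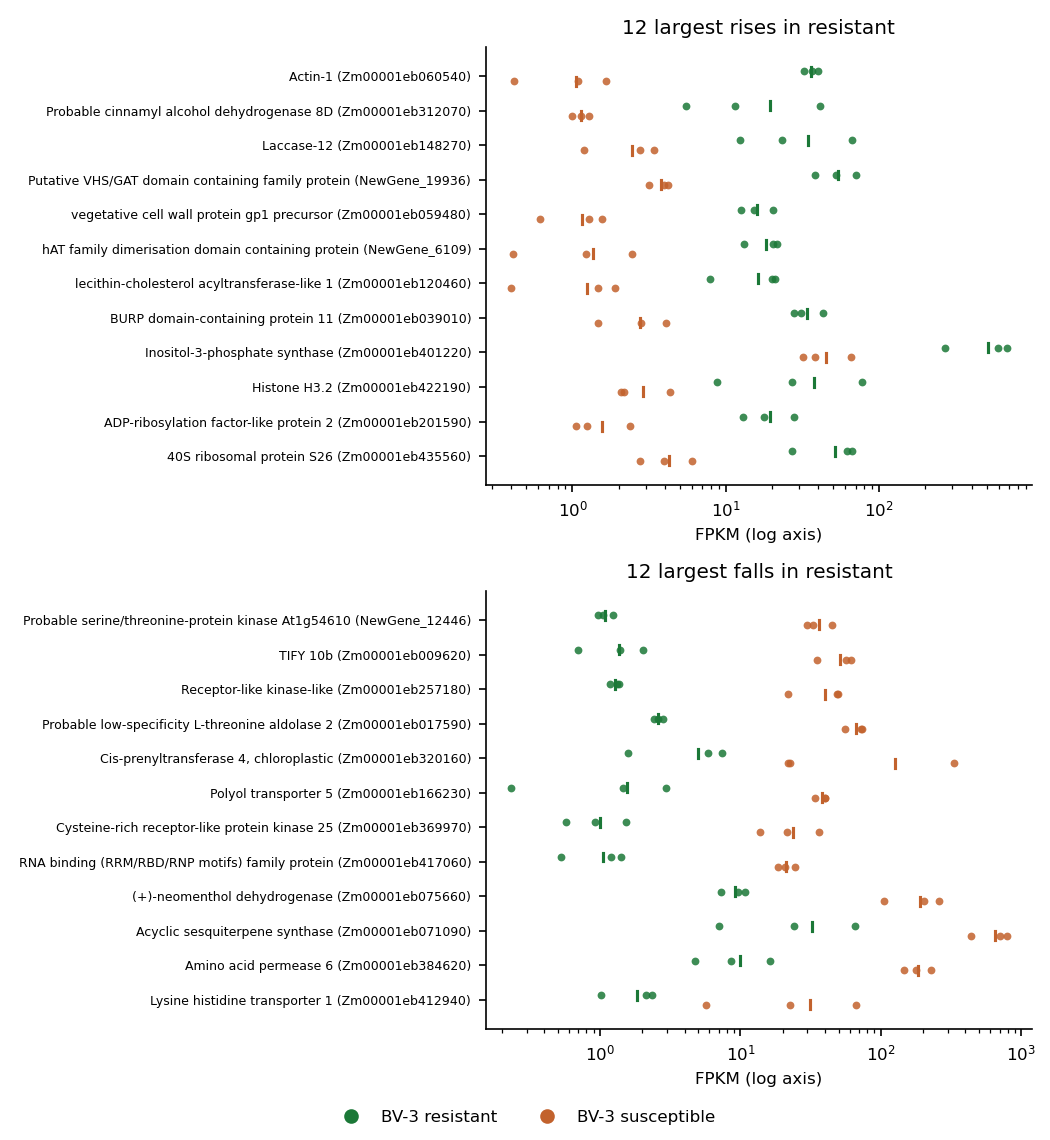
FPKM (log axis) of the 12 largest rises (upper panel) and the 12 largest falls (lower panel) in BV-3 resistant plants among genes expressed in both lines. Each point is a library, green for BV-3 resistant and orange for BV-3 susceptible, and each tick is the mean of 3 libraries. That the points of the lines do not overlap was part of the choice of these 24 genes.

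TIFY genes, the jasmonate repressors, made up most of the falls among jasmonate genes in resistant plants. Of 73 expressed in both lines, 20 fell (27.4%, against 7.19% of all genes expressed in both lines) and 3 rose (4.11%, against 2.36%), with a median log2 fold change of -0.73 against -0.045 for all genes expressed in both lines. Of 31 TIFY genes 16 fell (51.6%) and 1 rose, while of the 42 other jasmonate genes 4 fell (9.52%) and 2 rose (4.76%), a share of falls near the 7.19% of all genes expressed in both lines. The median was -1.60 for the TIFY genes and -0.53 for the others. The 16 TIFY genes that fell, added up because they were called, summed to 1221, 1136 and 761 FPKM in BV-3 resistant libraries against 3518, 4238 and 2619 FPKM in BV-3 susceptible libraries. Their sum was 1291, 258 and 443 FPKM in the CK resistant libraries and 1603 FPKM in the first CK susceptible library, so each BV-3 susceptible library was above the first CK susceptible library, while the CK resistant libraries spread from below to above the BV-3 resistant ones.

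The most abundant of them, a TIFY 10c gene (Zm00001eb314010), had 319, 300 and 217 FPKM in resistant libraries against 917, 1244 and 489 FPKM in susceptible libraries (-1.87 ± 0.48, adjusted p = 0.039), and its call was lost without any one library but the third susceptible one (highest adjusted p = 0.15) and with limma. A TIFY 11e gene (Zm00001eb048780) had 176, 140 and 87.7 FPKM against 567, 624 and 317 FPKM (-2.10 ± 0.43), and TIFY 10a (Zm00001eb019470) 164, 195 and 99.4 FPKM against 375, 438 and 430 FPKM (-1.66 ± 0.33). None of these genes overlapped between the lines, but the call of TIFY 11e was lost without any one of 3 libraries (highest adjusted p = 0.067) and that of TIFY 10a without the third resistant library (adjusted p = 0.057). A pair of TIFY 10b genes differed far more. One (Zm00001eb009620) had 2.04, 1.38 and 0.693 FPKM against 61.3, 56.3 and 35.3 FPKM (-5.40 ± 0.51, adjusted p = 0.0022), and the other (Zm00001eb168150) 2.82, 5.08 and 4.11 FPKM against 61.3, 56.2 and 34.8 FPKM (-3.89 ± 0.32, adjusted p = 0.0018). Under CK the first of this pair had 0.214, 0.0426 and 1.98 FPKM in the resistant libraries against 29 FPKM in the first susceptible library, so it was low in the resistant line with and without BV-3. Both genes have nearly the same values in each susceptible library, and reads shared between near-identical copies could have been split between them. TIFY 9 (Zm00001eb084980; -2.83 ± 0.35), TIFY 11a (Zm00001eb005980; -2.88 ± 0.42) and TIFY 5 (Zm00001eb300140; -3.97 ± 0.51) also fell.

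Enzymes that make or modify jasmonate held a few falls. A 12-oxophytodienoate reductase (Zm00001eb373030), described as form 1 of this family of reductases, had 3.37, 3.58 and 0.938 FPKM in resistant libraries against 29.2, 42.7 and 69.3 FPKM in susceptible libraries (-4.38 ± 0.60, adjusted p = 0.0049), and was the only one of 8 reductases called. Allene oxide cyclase (Zm00001eb393530), which forms the ring of the hormone's precursor, had 24.5, 33.1 and 12.1 FPKM against 77.9, 114 and 74.4 FPKM (-2.17 ± 0.38, adjusted p = 0.0093). The jasmonoyl-amino acid synthetase GH3.5 (Zm00001eb358430), described as joining the hormone to an amino acid, had 23.6, 16.6 and 15.2 FPKM against 72.9, 115 and 105 FPKM (-2.59 ± 0.34). Of 13 lipoxygenases, which oxidise the lipid precursor, lipoxygenase 6 (Zm00001eb005920) alone fell (-0.93 ± 0.20, adjusted p = 0.019), a call lost without any one of 4 libraries (highest adjusted p = 0.11) and with limma, and edgeR called 0 of 6 receptor genes of the COI1 type and 0 of 4 allene oxide synthases. At an unadjusted p under 0.05 there were 5 of these receptor genes, 1 higher and 4 lower, and 2 of the synthases, both lower. DESeq2 called 2 of each, and limma 1 receptor gene and 0 synthases. The genes that rose were a TIFY 3 gene (Zm00001eb056840; 49.8, 74.2 and 32.1 against 6.41, 8.35 and 8.9 FPKM, 2.58 ± 0.33) and 2 genes described as 60 kDa jasmonate-induced protein (Zm00001eb089980 and Zm00001eb060190), the second with 2.73, 17 and 10.5 against 2.08, 0.455 and 0.661 FPKM. The calls of these 2 genes were lost without the third resistant or the second susceptible library, among others (highest adjusted p = 0.12). The jasmonate genes named here beyond TIFY 10b, TIFY 9 and TIFY 3 were chosen after their values were seen. The count of jasmonate falls ranged from 12 to 24 when each library was left out in turn, lowest without the third resistant library, where 8 of them were TIFY genes, and the median stayed between -0.84 and -0.70. With DESeq2 11 of the 42 jasmonate genes other than TIFY fell (26.2%) and 5 rose (11.9%), and 19 of the 31 TIFY genes fell (61.3%). Among all genes expressed in both lines, 22085 in the edgeR fit, DESeq2 called 2358 lower and 1209 higher. With DESeq2 the jasmonate genes other than TIFY thus also fell in a larger share than all genes, whereas with edgeR these shares were near each other.

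**Figure D3:**
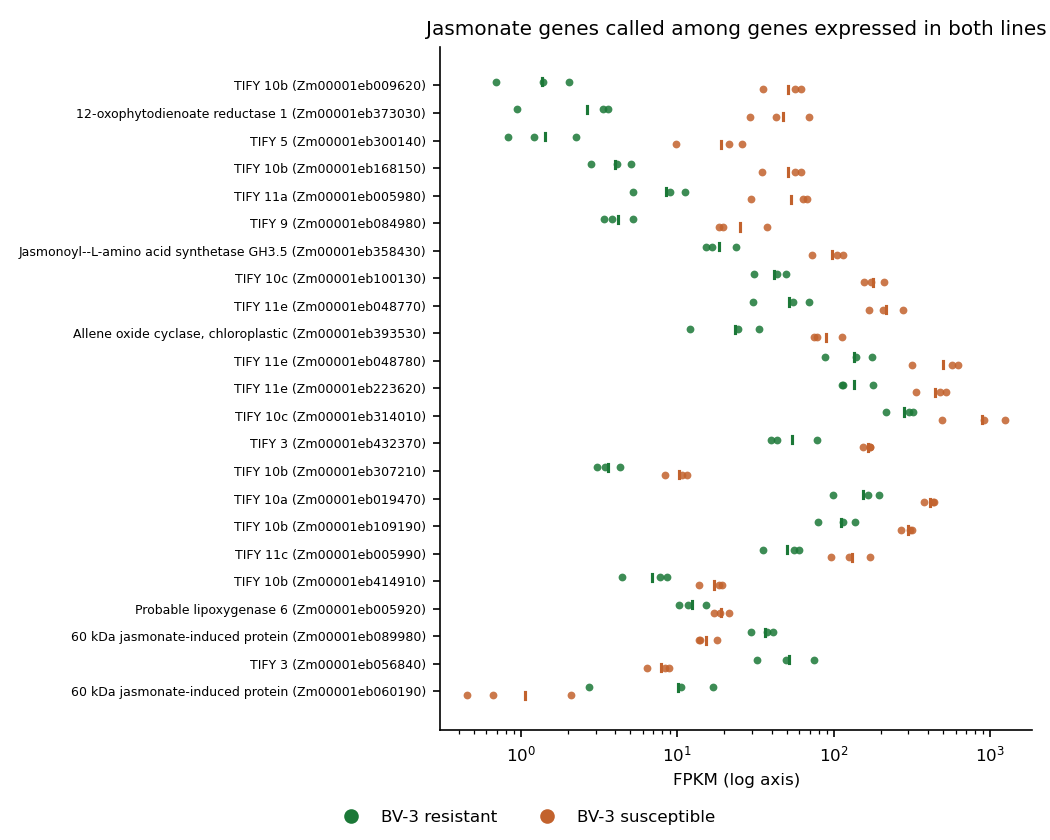
FPKM (log axis) of the 23 jasmonate genes called among genes expressed in both lines, in BV-3 resistant (green) and BV-3 susceptible (orange) libraries. Each point is a library and each tick the mean of 3, ordered from the largest fall to the largest rise. The 20 genes at the top were lower and the 3 at the bottom higher in resistant plants.

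Receptor kinases, NAC factors and ethylene genes also held many falls and few rises. Of all genes expressed in both lines, 7.19% fell and 2.36% rose. Of 218 receptor kinases of immunity expressed in both lines, 41 fell (18.8%) and 3 rose (1.38%), with a median of -0.47. Cysteine-rich receptor-like protein kinase 40 (Zm00001eb200730) had 6.43, 7.72 and 5.71 FPKM in resistant libraries against 28.4, 28.3 and 26.1 FPKM in susceptible ones (-2.28 ± 0.19, adjusted p = 0.0018), with little spread in either line. PBL10 (Zm00001eb429130), a cytoplasmic kinase of the kind that relays receptor signals, had 7.86, 11.8 and 8.29 against 47.6, 55.8 and 32.5 FPKM (-2.51 ± 0.25), and an L-type lectin receptor kinase (Zm00001eb398020) 12.5, 16.1 and 14.2 against 44.5, 37.6 and 42.2 FPKM (-1.76 ± 0.19). Each of the 16 called NAC factors, plant transcription factors of stress and senescence, was lower (22.9% of 70, median -0.56), among them NAC domain-containing protein 74 (Zm00001eb128000; 14, 15.5 and 17.6 against 110, 88 and 49 FPKM) and a gene described as NAC domain-containing protein 2 (Zm00001eb399810; 1.89, 4.73 and 2.41 against 29.5, 26.6 and 19.7 FPKM). The counts of falls ranged from 21 to 38 for receptor kinases and from 9 to 15 for NAC factors when libraries were left out, lowest without the third resistant library for both.

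Of 121 ethylene genes, 23 fell (19.0%) and 3 rose (2.48%), with a median of -0.51. The share of rises was near the 2.36% of all genes expressed in both lines. The ethylene genes were mostly ethylene-responsive transcription factors. RAP2-2 (Zm00001eb193670) had 2.08, 3.41 and 1.48 FPKM in resistant libraries against 40.1, 58.5 and 27.5 FPKM in susceptible ones (-4.42 ± 0.41, adjusted p = 0.0022), ABR1 (Zm00001eb255860) 1.62, 4.38 and 1.4 against 33.8, 51.7 and 21.5 FPKM (-4.12 ± 0.53), and ERF025 (Zm00001eb187190) 4.14, 9.71 and 9.21 against 82.7, 72.4 and 36 FPKM (-3.29 ± 0.43). In the first CK susceptible library RAP2-2 stood at 6.24 and ABR1 at 5.35 FPKM, well below their levels in susceptible plants under BV-3. WRKY factors, regulators of pathogen responses, had 8 falls and no rise among 86 (9.30%, median -0.56), a share close to the 7.19% of all genes expressed in both lines. WRKY transcription factor 27 (Zm00001eb203940) had 2.85, 3.4 and 2.73 against 10.6, 15.3 and 7.7 FPKM (-2.12 ± 0.31). Of 13 salicylic acid genes 2 fell (15.4%), the transcription factor TGA2.2 (Zm00001eb331170; -1.35 ± 0.23, adjusted p = 0.009) and the salicylic acid receptor NPR3 (Zm00001eb065420; -1.35 ± 0.24, adjusted p = 0.01). The ethylene falls ranged from 12 to 26 with libraries left out, lowest without the third resistant library, and those of WRKY genes from 2 to 11.

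Detoxification enzymes and sugar genes were read against the 7.19% of falls and 2.36% of rises of all genes expressed in both lines. Glutathione S-transferases, which couple toxic compounds to glutathione, had 7 falls (12.7%) and 1 rise (1.82%) among 55 (median -0.55). GSTU6 (Zm00001eb156150) had 20.9, 36.8 and 12.8 FPKM in resistant libraries against 303, 333 and 229 FPKM in susceptible ones (-3.87 ± 0.41, adjusted p = 0.0026). UDP-glycosyltransferases had 9 falls among 52 (17.3%) and cytochromes P450 14 falls (15.2%) and 2 rises (2.17%) among 92, where P450 72A14 (Zm00001eb358860) rose with 15.3, 16.3 and 15.5 against 1.82, 1.76 and 2.36 FPKM (2.77 ± 0.23) and P450 71A9 (Zm00001eb079490) fell with 2.7, 3.61 and 3.95 against 17.9, 18.7 and 13.7 FPKM (-2.51 ± 0.24). Sugar transport and invertase genes had 12 falls (16.7%) and 3 rises (4.17%) among 72. Sugar transport protein 7 (Zm00001eb312640) had 22.1, 19.2 and 13.2 against 87.1, 114 and 81.6 FPKM, and cytosolic invertase 1 (Zm00001eb189220), which splits sucrose, 7.52, 4.25 and 8.02 against 26.4, 44.9 and 51.9 FPKM (-2.81 ± 0.42, adjusted p = 0.0062). Without 1 library the falls went down to 4 for glutathione S-transferases (without the first resistant, the third resistant or the second susceptible library), 3 for UDP-glycosyltransferases and 8 for P450 (both without the third resistant library) and 6 for sugar genes (without the second susceptible library). The sugar rises were 0 to 2 with 1 library left out. The sugar falls were also fewer by 1.5 times or more without the first resistant (8), the third resistant (7) or the third susceptible library (8), and those of UDP-glycosyltransferases without the second resistant (6), the first susceptible (6) or the second susceptible library (5). The 4 terpenoid genes that fell, of 15 (26.7%), included terpene synthase 2 (Zm00001eb230410; 14.9, 17.8 and 3.1 against 53.5, 110 and 162 FPKM, -3.42 ± 0.72), whose call was lost without the second resistant library (adjusted p = 0.052). Without that library 0 terpenoid genes fell, and 2 fell without any one susceptible library. The median of the terpenoid list was -0.45 and changed sign, to 0.065, without the second susceptible library.

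Several laccases rose. Of 10 laccases expressed in both lines, a group singled out after its values were seen, 5 rose and none fell, and all 10 had a log2 fold change above 0 (median 1.63). With 1 library left out 1 to 3 of them rose, fewest without the third susceptible library, and 7 to 10 had a log2 fold change above 0. Laccase-3 (Zm00001eb149240) had 27.7, 30.7 and 18.5 FPKM in BV-3 resistant libraries against 5.31, 9.22 and 5.19 FPKM in BV-3 susceptible libraries (1.73 ± 0.32, adjusted p = 0.011), and laccase-4 (Zm00001eb367900) 36.2, 12.2 and 15.4 against 4.98, 4.39 and 4.81 FPKM (2.01 ± 0.49, adjusted p = 0.033), a call lost without any one of 4 libraries (highest adjusted p = 0.099). Of all genes expressed in both lines, 2.36% rose and 7.19% fell. The phenylpropanoid and monolignol list as a whole, which holds the laccases, had 9 rises (10.5%) and 8 falls (9.30%) among 86, a share of falls close to that of all genes. Its rises were 3 without the first or the third susceptible library, and its falls were 4 without the third resistant, the first susceptible or the second susceptible library. Its falls included trans-cinnamate 4-monooxygenase (Zm00001eb368900), an early enzyme of the pathway, with 9.36, 6.52 and 4.6 against 31.1, 45.8 and 30.5 FPKM (-2.59 ± 0.36, adjusted p = 0.0052), and dirigent protein 1 (Zm00001eb166630; 1.9, 1.94 and 1.09 against 9.2, 12.3 and 12.8 FPKM). Class III peroxidases, secreted enzymes that also act on lignin, had 6 rises (10.2%) and 4 falls (6.78%) among 59 and a median of 0.35. Their share of falls was also close to that of all genes. The count of rises depended on the libraries used, with 0 left without the second resistant library, where the median was -0.035, 3 without the first resistant library, and 1 without the third resistant, the first susceptible or the third susceptible library. Peroxidase 2 (Zm00001eb354680) had 5.04, 7.66 and 4.21 FPKM in resistant libraries against 1.44, 1.52 and 0.598 FPKM in susceptible libraries (2.00 ± 0.45, adjusted p = 0.024), a call lost without any one of 4 libraries (highest adjusted p = 0.07). Peroxidase 52 (Zm00001eb383830) fell to 7.58, 15.5 and 10.7 FPKM in resistant libraries, against 49.1, 66.3 and 46.2 FPKM in susceptible libraries (-2.51 ± 0.27). The flavonoid list had 3 falls among 46 (6.52%), and 0 without the second susceptible library.

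NLR immune receptors expressed in both lines moved in both directions, with 8 rises (11.1%) and 9 falls (12.5%) among 72 and a median of 0.15. Of all genes expressed in both lines, 2.36% rose and 7.19% fell. With 1 library left out the rises ranged from 5 to 11 and the falls from 4 to 10, with 5 rises without the first resistant, the third resistant, the first susceptible or the third susceptible library and 4 falls without the third resistant one. A pair described as RGA5 (Zm00001eb405270 and Zm00001eb405290), named after a rice immune receptor, was among the most abundant. The first had 42.6, 21 and 43.9 FPKM in resistant libraries against 3.25, 2.08 and 4.93 FPKM in susceptible ones (3.22 ± 0.49, adjusted p = 0.0064), and the second 45.1, 21.2 and 45.7 against 4.69, 2.78 and 6.74 FPKM (2.81 ± 0.49, adjusted p = 0.0096). An RGA4 gene (NewGene_9507) had 31.7, 12.8 and 19 against 1.87, 1.75 and 2.18 FPKM (3.22 ± 0.45). Under CK the RGA5 genes had 27.4, 11.7 and 25.5 FPKM and 23.3, 8.16 and 24.1 FPKM in the resistant libraries, against 0.937 and 1.57 FPKM in the first susceptible library. The RGA4 gene had 12, 2.28 and 12.7 FPKM there, against 1.41 FPKM, so each of the 3 was also higher in CK resistant libraries. RPS2 (Zm00001eb077540) rose with 24, 17 and 24.1 against 6.54, 9.54 and 5.63 FPKM (1.39 ± 0.32, adjusted p = 0.025). Falls were of a probable disease resistance protein like At4g33300 (Zm00001eb030390; 35.3, 30.7 and 20 against 75.2, 84.8 and 78.4 FPKM, -1.68 ± 0.30, adjusted p = 0.01), a Pik-2 gene (Zm00001eb200740; 5.23, 5.92 and 4.52 against 14.8, 15.1 and 17.5 FPKM, -1.81 ± 0.19) and an RPP13-like gene (Zm00001eb405960; 1.68, 1.72 and 1.52 against 5.47, 6.9 and 5.63 FPKM, -2.08 ± 0.21). The call of RPS2 was lost without any one of 4 libraries (highest adjusted p = 0.097), and the other named NLR genes were called with any library left out.

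Other defence lists had shares nearer to those of all genes. Pathogenesis-related and antimicrobial proteins had 13 falls and 3 rises among 121 (10.7 and 2.48%), against 7.19 and 2.36% of all genes expressed in both lines. They had 6 falls without the third resistant library. Among the falls, a putative thaumatin domain family protein (Zm00001eb040100) had 2.26, 2.9 and 2.17 FPKM in resistant libraries against 15.2, 16.8 and 8.25 FPKM in susceptible ones (-2.75 ± 0.33, adjusted p = 0.0036). Glucan endo-1,3-beta-glucosidase 7 (Zm00001eb215900), of a family of enzymes that cut glucans, had 10.6, 10.6 and 8.71 against 22.4, 30.7 and 23.7 FPKM (-1.58 ± 0.22, adjusted p = 0.0053). The rises included a Bowman-Birk trypsin inhibitor (Zm00001eb079730) at 30.3, 41.8 and 46.5 FPKM in resistant libraries against 3, 4.06 and 3.25 FPKM in susceptible ones (3.29 ± 0.28, adjusted p = 0.0019) and thaumatin-like protein 1 (Zm00001eb398840) at 18.8, 21.8 and 16.9 against 2.26, 2.3 and 0.758 FPKM. The inhibitor had 215, 21.9 and 362 FPKM in the CK resistant libraries. In the benzoxazinoid list 1 of 26 genes expressed in both lines fell (3.85%), the glucosyltransferase BX8 (Zm00001eb096940). It had 6.48, 10.2 and 3.42 against 13.5, 12.8 and 15.6 FPKM (adjusted p = 0.046). Its call was lost without any library but the second resistant one (highest adjusted p = 0.11) and with upper-quartile scaling. Over all 40 genes tested in this list, 3 fell and 1 rose. The other falls, low in a line, were the dioxygenase BX6 (Zm00001eb373400, adjusted p = 0.013) and an indole-2-monooxygenase (Zm00001eb260010, adjusted p = 0.049). The BX6 call was lost without the third resistant library (adjusted p = 0.0501), and that of the monooxygenase without any one library. The plot of list shares sets all lists with at least 10 genes expressed in both lines against the background.

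**Figure D4:**
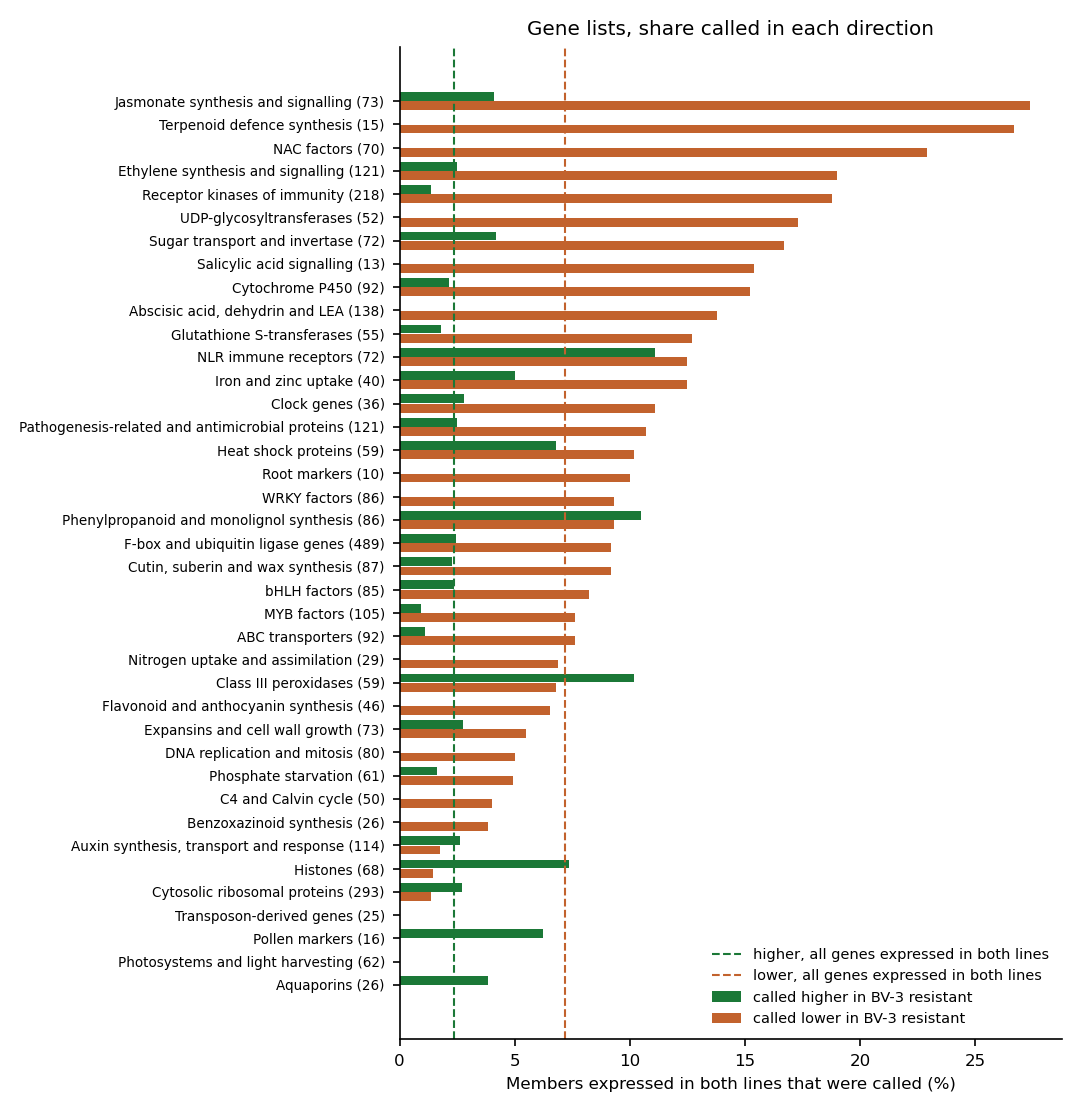
Share (%) of the members expressed in both lines that were called higher (green) or lower (orange) in BV-3 resistant plants, for the 39 gene lists with at least 10 such members, with the number of members in parentheses. Dashed lines mark the shares of all genes expressed in both lines, 2.36% higher and 7.19% lower. Jasmonate genes show 27.4% falls, and NLR receptors 11.1% rises beside 12.5% falls.

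Gene groups that mark leaf tissue and dividing tissue differed between single libraries. No photosystem or light-harvesting gene of 62 expressed in both lines was called by edgeR, 1 had an unadjusted p under 0.05, DESeq2 called 1 and limma 0, and their median centred log2(FPKM + 1) was 0.48, -0.86 and 0.79 in BV-3 resistant libraries and -0.07, -0.67 and 0.24 in BV-3 susceptible libraries, so the lines overlapped. Of all genes expressed in both lines, 2.36% rose and 7.19% fell. Histones had 5 rises and 1 fall among 68 (7.35 and 1.47%) and a median of 1.18. Their library levels were -0.57, 1.79 and 0.61 against -0.63, -0.07 and -1.03. Cytosolic ribosomal proteins had 8 rises and 4 falls among 293 (2.73 and 1.37%), a share of rises near that of all genes. Their median was 0.47, with levels of -0.45, 0.68 and 0.65 against -0.37, -0.40 and -0.13. In both lists the first resistant library lay within or below the range of the susceptible ones, and without it 21 histones and 69 ribosomal proteins rose. Without the second resistant library 1 histone and 6 ribosomal proteins rose. The TIFY levels on the same scale were -0.42, -0.42 and -0.83 in resistant and 0.70, 0.82 and 0.34 in susceptible libraries, with no overlap, whereas those of the other jasmonate genes overlapped, at -0.26, 0.23 and -0.43 against 0.13, 0.44 and -0.17. Of 10 root markers 1 fell, of 16 pollen markers 1 rose, and no seed marker was expressed in both lines. The part of tissue makeup in the results above was not tested.

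Clock genes, whose level follows the time of day, had 4 falls (11.1%) and 1 rise (2.78%) among 36. Of all genes expressed in both lines, 7.19% fell and 2.36% rose, so the share of rises was near that of all genes. For clock genes 1 fall was left without the third resistant or the second susceptible library. There were 2 falls without the second resistant or the first susceptible one. With the replicate number as a block, 0 of these clock genes were called. REVEILLE 8 (Zm00001eb065440), a clock activator, had 3.17, 6.51 and 11.4 FPKM in resistant libraries against 58.5, 60.2 and 30.5 FPKM in susceptible ones (-3.05 ± 0.52, adjusted p = 0.0088), and REVEILLE 6 (Zm00001eb379300) 125, 82.6 and 89.6 against 31.8, 35.4 and 24.1 FPKM (1.51 ± 0.31), a call lost without the first or the third susceptible library (highest adjusted p = 0.065). The part of the hour of harvest was not tested.

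The genes with 0 counts in one line were a separate kind. They were part of the edgeR fit and all were called, but they are described here without test values since their counts chose them. In all, 476 genes were found in every BV-3 resistant library and had no count in any BV-3 susceptible library, and 364 genes showed the opposite. Models beyond the annotation made up 67.6 and 67.9% of these 2 sets, against 14.1% of all genes tested and 4.82% of genes expressed in both lines. Most were expressed at a low level, with a median of 3.38 FPKM in resistant plants for the first set and 3.36 FPKM in susceptible plants for the second, and 59 and 48 genes reached a mean of 10 FPKM. Set against a floor of 3 counts per library, the median gene was at least 43.2-fold higher in resistant plants in the first set and at least 48.7-fold lower in the second. A count of 0 does not tell apart a gene that the line lacks, a gene that is silent and a gene whose reads did not align to the reference line.

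The gene with the highest level among those absent from susceptible plants was a transposase gene of the Ac family of transposons, described as AC9 (NewGene_17548), with 83.3, 148 and 119 FPKM in BV-3 resistant libraries and 0 in BV-3 susceptible libraries, at least 3465-fold higher. The trihelix transcription factor GT-3a (NewGene_27524) had 17.1, 35.1 and 44.9 FPKM, the nuclear pore protein NUP96 (Zm00001eb075600) 27.6, 29.6 and 16.2 FPKM, and the peroxisomal acyl-activating enzyme 17 (Zm00001eb091210) 22.2, 36.9 and 36.6 FPKM in resistant libraries, all with 0 counts in susceptible ones. A pair of models for RRN3 (Zm00001eb135330 and Zm00001eb135340), an initiation factor of RNA polymerase I, had 19.6, 25.2 and 18.3 FPKM and 19.4, 27.2 and 17.7 FPKM, so the pair had nearly the same level in each library. The ubiquitin ligase RGLG1 (Zm00001eb110860), 40S ribosomal protein S18 (Zm00001eb354110) and a WD-40 repeat protein (Zm00001eb310890) averaged 19.7 ± 1.9, 21.2 ± 6 and 27.9 ± 4.7 FPKM. A ribosomal S4 family gene (Zm00001eb273740) was uneven, with 15.8, 11.9 and 54.5 FPKM. OHP1 (Zm00001eb168820), a light-harvesting-like protein of the chloroplast, had 13, 19.1 and 19.2 FPKM, and the transcription factor bHLH49 (Zm00001eb276120) 13.3, 14.5 and 12.7 FPKM.

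Among the genes absent from resistant plants, fiber protein Fb15 (Zm00001eb233510) was highest, with 0 counts in BV-3 resistant libraries and 97.4, 90.5 and 110 FPKM in BV-3 susceptible libraries, at least 507-fold lower in resistant plants. TOM1-like protein 5 (NewGene_23684) had 38.8, 31 and 47.5 FPKM in susceptible libraries, ribonuclease J (Zm00001eb129190), an RNA-processing enzyme, 29.2, 32.8 and 27 FPKM, and protein TRAUCO (Zm00001eb022310) 26.8, 28.1 and 27.2 FPKM. A stress-associated endoplasmic reticulum protein (Zm00001eb166200) averaged 29.2 ± 14 FPKM, a guanosine nucleotide dissociation inhibitor (Zm00001eb345650), a regulator of vesicle traffic, 21 ± 3.2 FPKM, the eta subunit of the TCP1 chaperonin (Zm00001eb045220) 19.2 ± 2.2 FPKM, the transporter DETOXIFICATION 44 (Zm00001eb100400) 18.1 ± 3.5 FPKM and MEI2-like 4 (Zm00001eb066930) 17.8 ± 1.6 FPKM. Glutathione S-transferase F11 (Zm00001eb002810) had 12.6, 15.7 and 14.2 FPKM, a WRKY gene (NewGene_8092) 7.58, 8.74 and 10.5 FPKM, a nitrate reductase (Zm00001eb124130) 5.27, 4.09 and 6.78 FPKM and the metal transporter YSL16 (Zm00001eb287140) 5.75, 3.7 and 8.09 FPKM. For most of these genes the 3 susceptible libraries lay close together.

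The genes found in resistant plants alone held 8 NLR immune receptors and those found in susceptible plants alone 2. Of 129 NLR genes tested, 8 (6.2%) had 0 counts in susceptible plants, against 0.735% of the 22053 tested genes with an informative description, and 2 (1.55%) had 0 counts in resistant plants, against 0.603%. Pik-2 (Zm00001eb419270), named after one partner of a rice receptor pair against blast fungus, had 2.95, 2.9 and 3.16 FPKM in BV-3 resistant libraries and 0 in BV-3 susceptible libraries, at least 258-fold higher. A PIK6-NP gene (Zm00001eb419310), whose identifier lies close to that of Pik-2, had 2.06, 2.53 and 1.9 FPKM. The RPP13-like genes 1 (Zm00001eb304860) and 3 (Zm00001eb304830) had 3.55, 2.7 and 2.01 FPKM and 2.78, 1.43 and 1.74 FPKM, and 2 RPM1 genes (NewGene_12541 and NewGene_20216) averaged 4.33 ± 1.6 and 2.28 ± 0.62 FPKM. RGA4 (Zm00001eb164630) and RGA5 (Zm00001eb110490) averaged 1.82 ± 0.72 and 1.66 ± 0.76 FPKM. The NLR genes found in susceptible plants alone were low, an RPP13-like gene (Zm00001eb087590) with 0.568, 0.385 and 0.425 FPKM and a Pik-2 gene (Zm00001eb115770) with 1.5, 0.647 and 0.557 FPKM.

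Ribosomal proteins, transposon-derived genes and a benzoxazinoid gene were also present in these sets. Of tested genes with an informative description, 0.735% had 0 counts in susceptible and 0.603% in resistant plants. Cytosolic ribosomal proteins had 10 of 343 tested genes (2.92%) with 0 counts in susceptible plants, and 5 of those 10 were models described as 60S ribosomal protein L17. Only 2 (0.583%) had 0 counts in resistant plants, a share near that of all described genes. Transposon-derived genes had 9 of 151 (5.96%) with 0 counts in susceptible and 3 (1.99%) with 0 counts in resistant plants. In the benzoxazinoid list a second BX8 gene (Zm00001eb304060) was found in resistant plants alone, at 1.47, 1.55 and 0.611 FPKM. Jasmonate and NAC genes, 81 and 96 tested, had no member in either set, but lists of this size are too small for that to stand out from the shares of all described genes.

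Many genes found in one line had another model of the same gene symbol that moved in the same direction. Of 69 genes with 0 counts in susceptible plants whose symbol another tested model shared, 41 (59.4%) had such a model called higher in resistant plants, against 17.0% of the 2372 genes with a shared symbol over all genes tested, and 6 (8.7%) had one called lower. Of 47 genes with 0 counts in resistant plants, 23 (48.9%) had such a model called lower, against 16.3% over all genes, and 11 (23.4%) had one called higher. Models of a symbol can be copies or fragments of a gene, so they are not independent. The other model could itself belong to the same set with 0 counts, and every gene of these sets was called. Part of the excess over all genes can therefore be fixed by the choice of the sets.

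Some descriptions had one model at least 8-fold higher in resistant plants and another at least 8-fold lower. Of 459 descriptions with a called model at least 8-fold higher in resistant plants and 553 with one at least 8-fold lower, 53 were shared, which is 11.5% of the first and 9.58% of the second. The 53 include transposon descriptions with several models each. No such share was computed over all descriptions with several models, so 53 cannot be read as many or few. The examples below were chosen after their values were seen. Next to the Actin-1 gene that rose, another (Zm00001eb365170) had 0.0204, 0.466 and 0.33 FPKM in BV-3 resistant libraries against 37, 30.9 and 29.8 FPKM in BV-3 susceptible libraries. A vacuolar proton pump gene (Zm00001eb248980) had 25.9, 45.1 and 36.6 against 0.204, 0.0521 and 0.0187 FPKM, and a second gene of that name (Zm00001eb099760) 0.432, 0.415 and 0.528 against 75.4, 70.3 and 65.9 FPKM. Each line thus held abundant Actin-1 and proton pump transcripts, but under different identifiers.

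The last kind of gene, low in a line without 0 counts in all its libraries or with low counts in the other, held many calls of the same sort. Of its 1182 higher calls, 431 had 0 counts in all susceptible libraries, and of its 1217 lower calls, 400 had 0 counts in all resistant libraries, at levels under 1 CPM in a library of the other line. A second transposase gene described as AC9 (NewGene_17546) had 451, 617 and 377 FPKM in BV-3 resistant libraries against 0, 0.462 and 0.117 FPKM in BV-3 susceptible libraries (10.91 ± 1.44, adjusted p = 0.0046), the highest level of the named genes of this kind. Homeobox protein knotted-1-like 11 (NewGene_8173), of a family of regulators of meristems, had 0.0203, 0 and 0.015 against 76.9, 69.8 and 85.3 FPKM (-12.47 ± 0.67, adjusted p = 0.00082). Salicylic acid-binding protein 2 (Zm00001eb420270), named for an esterase that releases salicylic acid from its methyl ester in tobacco, had 12.8, 16.1 and 15.6 against 0.134, 0.142 and 0.199 FPKM (6.25 ± 0.32, adjusted p = 0.00062). Aquaporin PIP2-3 (Zm00001eb185300), a water channel, had 13.5, 26 and 15.1 against 0.143, 0.236 and 0.405 FPKM (5.83 ± 0.47). WRKY transcription factor 1 (Zm00001eb052670) had 0.404, 0.895 and 0.189 against 6.81, 14.7 and 43.3 FPKM (-5.63 ± 0.88), with the susceptible libraries spread widely. The first 2 of these 5 genes and the vacuolar pump genes were chosen after their values were seen.

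The CK libraries, which the comparison did not use, showed the genes of one line again, but not by the labels of every library. Of the 476 genes found in resistant plants under BV-3, 426, 405 and 455 reached 1 CPM in the CK resistant libraries. In the first CK susceptible library 2 did so, while in numbers 2 and 3 of that group 418 and 421 did. Of the 364 genes found in susceptible plants under BV-3, 1, 3 and 1 reached 1 CPM in the CK resistant libraries and 346 in the first CK susceptible library, while numbers 2 and 3 of the same group had 2 and 6. The presence of these genes thus followed the labels of all CK libraries except these 2, which carried the genes of resistant plants.

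**Figure D5:**
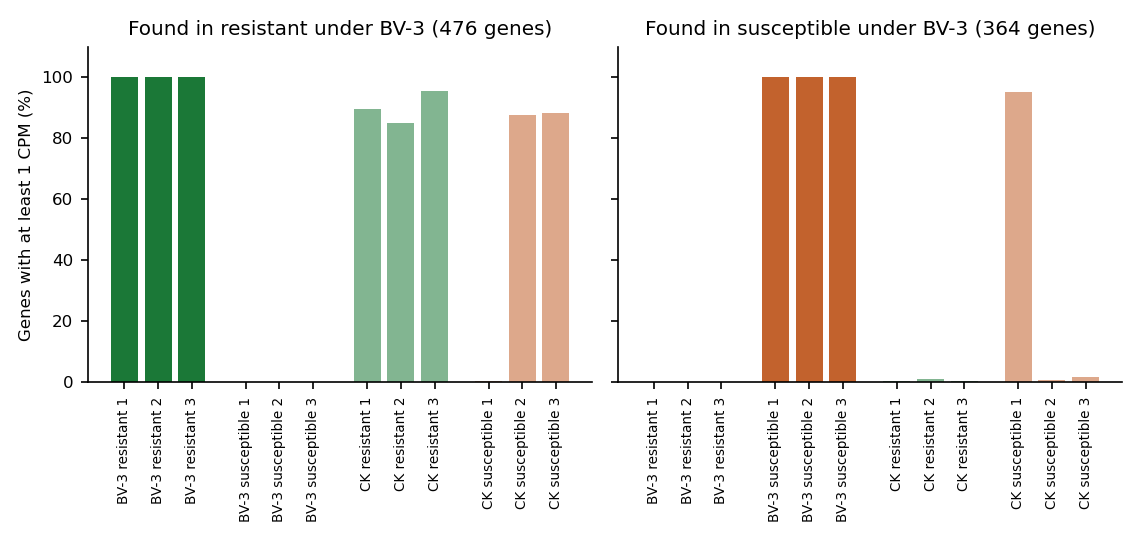
Share (%) of the genes with at least 1 CPM in each of the 12 libraries, for the 476 genes found in resistant plants alone under BV-3 (left) and the 364 genes found in susceptible plants alone under BV-3 (right). Bars are single libraries, green for libraries labelled resistant and orange for libraries labelled susceptible, paler under CK. The BV-3 bars are fixed by the choice of genes. Libraries 2 and 3 labelled CK susceptible show the pattern of resistant plants.

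Genes expressed in both lines had the same direction in many of the CK libraries. Of the 521 that rose under BV-3, all 3 CK resistant libraries were above the first CK susceptible library for 378 (72.6%) and below it for 14 (2.69%), against 38.1 and 18.9% of all genes expressed in both lines. Of the 1589 that fell, all 3 were below it for 823 (51.8%) and above it for 113 (7.11%). The second CK resistant library correlated least with its replicates. Without it 434 of the rises (83.3%) were above and 917 of the falls (57.7%) were below, against 53.8 and 26.8% of all genes expressed in both lines. With all 3 libraries labelled CK susceptible taken as they are labelled, the shares were 18.8% of the rises and 4.85% of the falls, against 18.6 and 7.55% of all genes expressed in both lines. These shares rest on a single CK susceptible library and were not tested.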

How the data were processed

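The deposited tables give raw counts and FPKM per gene for 12 libraries of whole maize plants. The authors counted reads per gene model, including models of their own beyond the annotation, and the counts as deposited are not normalised. The authors also derived the deposited FPKM values by scaling counts to gene length and library size. The submitters' processing notes name the build B73 RefGen_v4, and the sources used here name no aligner or counter. After 2 lines that name no gene were left out, 52932 genes remained, and depth was 32.3 to 37.8 M counts per BV-3 library.

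The 6 BV-3 libraries were fitted with edgeR 4.0.16 in R 4.3.3 (filterByExpr, TMM scaling, quasi-likelihood test, Benjamini-Hochberg adjustment), without the replicate number as a block. The common biological coefficient of variation was 0.477. The same settings were also run on artificial counts drawn with the means, library sizes and dispersions of the fitted genes, whose outcome is not given here. Alternatives were DESeq2 1.42.0, limma 3.58.1 on log2(FPKM + 1) and log2(FPKM + 0.1) of the authors' FPKM values, upper-quartile scaling, other filters, the block, all libraries in 1 fit, and each library left out. Genes with 0 counts in all 3 libraries of a line stayed in the fit and its counts of calls, but were described without test values. Their folds are lower bounds computed as if the line without counts had held 3 counts in each library. Such bounds allow for counting error alone.

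Among genes expressed in both lines, the text names the 12 largest rises and the 12 largest falls that were called, did not overlap, had an informative description and reached a mean of 10 FPKM in the higher line. It names the 10 highest described genes found in each line alone, and, per list, up to 4 called genes, taken in order of p among those whose mean reached 5 FPKM in one line. Called NLR and benzoxazinoid genes may also be named. The 40 gene lists match words in the authors' descriptions. The members, the lists and the comparison were chosen with earlier results of these data known, and list words off the theme were removed after values were seen. The labels call the replicates separate biological samples. Counting is not stated to use the strand, and reads of near-identical copies could be split between them.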

Additional observations from a re-analysis of the deposited data

Results flagged for a closer look

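In the 3 genes described here the difference between libraries labelled resistant and susceptible pointed one way under BV-3 and the other way under CK. In each treatment every library of one label lay on one side of those of the other label. They were not the only such genes. Of the 1589 falls among genes expressed in both lines, 92 (5.79%) had all CK resistant libraries above all those labelled CK susceptible. That held for 18.6% of all genes expressed in both lines. Of the 521 rises, 6 (1.15%) had them all below, against 7.55% of all genes expressed in both lines. The difference between the treatments was not tested, and 2 of the 3 libraries labelled CK susceptible carried the genes of resistant plants. Under CK only the first library labelled susceptible can therefore stand for the susceptible line, so a reversal between the lines rests on that single library. An RPM1 gene (Zm00001eb164890), an NLR receptor, had a log2 fold change of 1.46 under BV-3, with 7.7, 4.72 and 6.52 FPKM in BV-3 resistant libraries against 2.56, 1.82 and 1.68 FPKM in BV-3 susceptible libraries. Under CK it had 1.1, 0.39 and 1.5 FPKM in resistant libraries against 2.37, 2.61 and 2.92 FPKM in those labelled susceptible. Its call under BV-3 was lost without any one of 5 libraries (highest edgeR adjusted p = 0.089). The benzoxazinoid glucosyltransferase BX8 (Zm00001eb096940) had a log2 fold change of -1.305 under BV-3, and 4.51, 7.98 and 4.56 FPKM in CK resistant libraries against 3.65, 3.73 and 2.74 FPKM in those labelled CK susceptible. Myb-related protein P (Zm00001eb340000), named for a maize regulator of flavonoid pigments, had a log2 fold change of -3.173 under BV-3, with 1.31, 2.03 and 0.964 FPKM in BV-3 resistant libraries against 6.54, 10.7 and 15.9 FPKM in BV-3 susceptible libraries. Under CK it had 6.6, 12.4 and 5.56 FPKM in resistant libraries against 3.47, 2.77 and 2.72 FPKM in those labelled susceptible.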

How the results depend on the processing

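DESeq2 called 8623 genes, 3911 of them higher, with 3567 calls and 1209 higher ones among genes expressed in both lines. With a mean of at least 1 FPKM required, 1353 higher calls were left. With limma the higher calls among genes expressed in both lines were 940 and 944 at the larger and the smaller pseudocount. A minimum of 5 FPKM in each line left 1307 calls and 196 higher ones in that class. In 1 fit of all 12 libraries, with a common biological coefficient of variation of 0.682 against 0.477, 0 genes were called in all 6 counts. Requiring 2 CPM in the other line left 302 genes with 0 counts in susceptible plants and 226 with 0 counts in resistant plants, and annotated identifiers alone 154 and 117. With the replicate number as a block 1758 genes were called, 624 higher and 1134 lower, of which 767, 155 and 612 were expressed in both lines. The correlations of same-numbered libraries' deviations were -0.146, 0.0873 and 0.0824, so the numbers were not shown to pair the samples.

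With 1 library left out, all calls ranged from 3612 to 5207, higher calls from 1622 to 2333 and lower calls from 1990 to 3023. Among genes expressed in both lines the range was 852 to 1843 calls, 209 to 541 higher and 621 to 1462 lower. In that class the total fell below the main count by over 1.5 times without the third resistant (852), the first susceptible (1124) or the second susceptible library (1375), and so did the lower calls without these 3 (621, 915 and 957) or the second resistant library (903). The higher calls did so without the third resistant (231), the first susceptible (209) or the third susceptible library (328). The sets with 0 counts ranged from 517 to 545 in susceptible and from 386 to 427 in resistant plants, because fewer libraries had to meet the rule. Of 189 named genes in these alternatives 188 were called. No named gene reversed its direction in any of them, 62 lost the call under the block, 16 and 14 under limma, 5 under upper-quartile scaling, 188 in the fit of 12 libraries, and 21 to 45 with 1 library left out. The causes were not tested. Depth limits genes at a few counts per library, for which a count of 0 in a line was not told apart from a low level.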
